A study of Xenopus laevis with 3 samples.

Results

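Small RNA from dorsal tissue of *Xenopus laevis* gastrulae was sequenced, and a part of the listed sequences carries no miRBase name but a name that starts with PC-5p or PC-3p. These predicted small RNAs were taken by their names, with the condition that the raw reads of the 3 libraries add up to at least 1. The table held 334 such rows, and 267 of them met the condition, out of 1554 rows of any name that did so and 1985 rows in all. The members were thus chosen by their raw totals. Of the 67 rows left out, 46 were at 0 in every library and 21 had between 0.25 and 0.75 of a read, while 51 members had exactly 1 read. The sources used here spell out neither the prefix nor gp4a, the value of the group column that all 267 members share and that 0 rows with other names carry.

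Of the 3 libraries, 1 was made from uninjected embryos, 1 after injection of 400 pg of Lhx1-AS, which is an antisense oligonucleotide that targets *lhx1*, and 1 after injection of 20 ng of Fry-MO, which is a morpholino that targets *fry*. Injection was into both dorsal cells at the 4-cell stage together with a rhodamine dextran tracer, the embryos were kept at 14 °C until stage 10.5, and red fluorescent ones were selected. Each library pooled 30 dorsal pieces from independent experiments before sequencing, so a condition has 1 library, its replicate spread is unknown and p-values are not given. A library with a control oligonucleotide was not among them, so depletion, injection and selection cannot be told apart, and the targets *lhx1* and *fry* cannot be read from small RNA. In pooled tissue, fewer cells of a type and less RNA per cell cannot be told apart either.

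A miRNA is cut from a hairpin precursor, and the products of its arms are called 5p and 3p. Bases 2 to 8 of the mature product, the seed, pair with target mRNAs. MiR-427 is the *Xenopus* member of the family that is called miR-430 in fish and miR-302 in mammals. It is transcribed from many clustered gene copies as the zygotic genome is switched on, and it is known for clearing maternal mRNAs. MiR-428 is a related *Xenopus* miRNA.

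The label of the members as absent from miRBase holds for their names, but the most read of them are close in sequence to listed *Xenopus* miRNAs. Closeness was measured as edit distance, the number of single-base changes, insertions and deletions that turn one sequence into another. Within a distance of 6 of the listed mir-427-p5 sequence, the 5p product of the mir-427 precursor, lay 13 members, all named PC-5p. Within the same distance of the listed miR-427 sequence, the 3p product, lay 22 members, all named PC-3p. These are called the mir-427 5p type and the mir-427 3p type here, and the limit was chosen after the values were seen. The nearest member outside it was 7 from miR-427 and 9 from mir-427-p5. Of 1285 other rows without a PC- name, 2 lay within the limit of miR-427 and 0 within that of mir-427-p5. The 2 were the mouse miR-294-3p and miR-291a-3p, with 1 read each in the uninjected library. The other 232 members are called other members.

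The named miR-427 row itself is 23 bases long. Its name carries suffixes that the sources used here do not explain, so distances are to the listed sequence. PC-3p-15_84748, the second most read member, is 24 bases long and holds that row whole with 1 further base at its 3′ end. PC-3p-1607_398 does the same with another last base. PC-3p-1528_423 has the length of miR-427 and differs from it at a distance of 1. The most read member, PC-5p-6_221739, is 21 bases long like the mir-427-p5 row and lies at a distance of 3 from it. PC-5p-37_34533 is PC-5p-6 without its last base. Over the types, the distance ran from 2 to 6 with a median of 4 for the 5p type and from 1 to 6 with a median of 4 for the 3p type. The last number of each name is left out below.

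Of 5802603 raw reads in uninjected embryos, 4805539 after Lhx1-AS and 4493357 after Fry-MO, 3157393, 2451390 and 2125966 were mappable. The rows of the table held 133894, 56026 and 108041 of these, which is 4.24%, 2.29% and 5.08%. Reads that fit several rows were divided among them, so a value need not be whole. This touched 52 members, 10 of 13 of the 5p type, 21 of 22 of the 3p type and 21 of 232 others. Normalized counts are the raw reads divided by the authors' library size parameter, 0.921 without injection, 0.773 after Lhx1-AS and 0.877 after Fry-MO.

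The predicted members held 72275 of the listed raw reads in uninjected embryos, 18526 after Lhx1-AS and 20708 after Fry-MO. Nearly all of these were in the mir-427 types, with 97.9% of the predicted reads in uninjected embryos, 94.9% after Lhx1-AS and 96.2% after Fry-MO. The 5p type alone had 77.9%, 68.1% and 73.2%. The 232 other members together had 1506, 943 and 786 reads, or 2.08%, 5.09% and 3.80% of the predicted reads. Counted with the 2 named rows, the sequences of mir-427 type took 87.1% (95% Clopper-Pearson interval 86.9 to 87.2) of all listed reads in uninjected embryos, 62.2% (61.8 to 62.6) after Lhx1-AS and 32.5% (32.3 to 32.8) after Fry-MO. The predicted members made up 60.7%, 50.5% and 56.7% of those reads. All intervals given here cover counting error only, and they are exact only where reads are whole.

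**Figure D1:**
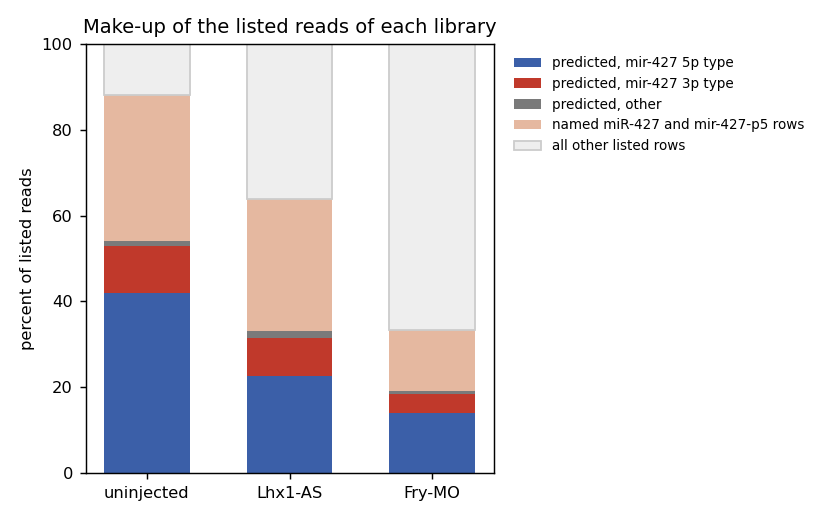
Percent of the listed reads (y axis, from 0 to 100) in each of the 3 libraries (x axis), stacked by kind of row, with predicted members of the mir-427 5p type, of the 3p type and all others, the named miR-427 and mir-427-p5 rows, and every other listed row. The 5p type took 42.0% of the listed reads in uninjected embryos, 22.5% after Lhx1-AS and 14.0% after Fry-MO, and the other predicted members took between 0.728% and 1.68%.

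The reads were concentrated in very few rows. PC-5p-6 alone held 68.0% of the predicted reads in uninjected embryos, 56.8% after Lhx1-AS and 63.2% after Fry-MO. With PC-3p-15 and PC-5p-37 the share was 93.3%, 88.1% and 90.8%, and 10 rows held 96.5%, 93.6% and 95.3%. To reach 90% of the predicted reads took 3, 5 and 3 rows. Among the rows with *Xenopus* names it took 6, 21 and 26, and the most read of those rows held 68.4%, 55.0% and 20.4% of their reads. To reach 99% of the predicted reads took 29, 48 and 34 rows.

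Below these rows the members were thinly read. The median member had 2.5 reads over the 3 libraries, 204 of 267 had under 10 reads, 30 had at least 50, and 3 had at least 1000. Together the 204 held 298 reads in uninjected embryos, 136 after Lhx1-AS and 104 after Fry-MO. Reads in all 3 libraries were found for 83 members, in 2 libraries for 70 and in 1 library for 114. The 114 are 42.7% of the members, against 53.8% of rows with placental mammal names, 48.9% with other chordate names and 11.4% with *Xenopus* names. Of the 114, 66 were read in the uninjected library only, 25 in the Lhx1-AS library only and 23 in the Fry-MO library only. The same split over all rows is not given here. In the uninjected, Lhx1-AS and Fry-MO libraries 208, 159 and 136 members had reads, against 992, 1039 and 1095 of all listed rows. None of these single-library members had more than 10 reads, and the depth of the libraries differs as given above, so absence from a library was not a detectable difference for nearly all of them. PC-3p-38270, of 18 bases, had the most, with 10 reads in uninjected embryos and 0 in the other two libraries. With the zeros set to 3 reads its ratios were at most 0.357 after Lhx1-AS and 0.315 after Fry-MO. Members read in the Lhx1-AS library only had at most 2 reads, a number reached by 11 of them, PC-5p-482073 and PC-3p-324262 included. In the Fry-MO library only, PC-5p-140039 and PC-5p-122505 had the most, with 3 reads each.

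**Figure D2:**
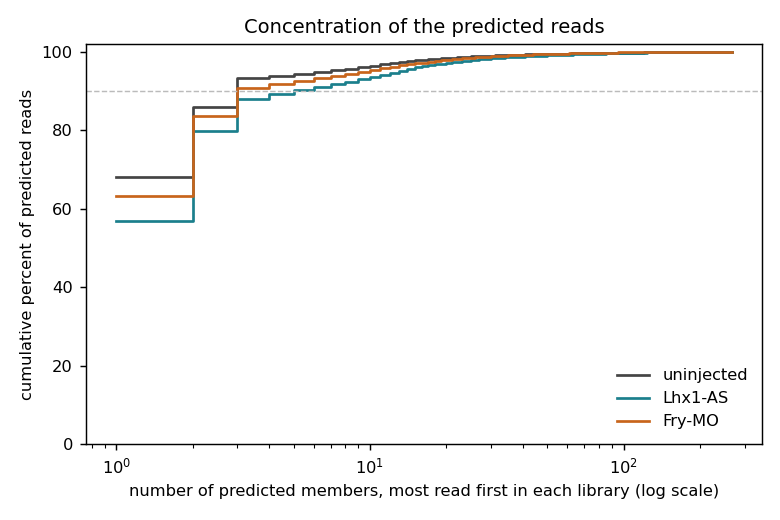
Cumulative percent of predicted reads (y axis) against the number of predicted members counted (x axis, log scale), most read first within each library, with 1 line per library and a dashed line at 90%. The lines start at 68.0% without injection, 56.8% after Lhx1-AS and 63.2% after Fry-MO and pass 90% at 3, 5 and 3 members.

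By length, the members and their reads gave different pictures. Members ran from 16 to 44 bases with a median of 21 (quartiles 19 and 23), and 147 of 267 (55.1%) had 20 to 24 bases, the usual length of a miRNA, against 150 of 166 (90.4%) rows with *Xenopus* names. All 35 mir-427-type members had 20 to 24 bases, and 112 of the 232 others (48.3%) did. The most frequent length was 19 bases, with 58 members, all of them others, against 3 *Xenopus* names. By reads, 21 bases held 70.1%, 59.3% and 65.5% of the predicted reads in the uninjected, Lhx1-AS and Fry-MO libraries, and 24 bases held 18.9%, 24.9% and 21.7%. These are the lengths of PC-5p-6 and PC-3p-15. Among the reads of other members, 19 bases held 26.3%, 32.5% and 39.7%.

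A few rows are longer than the reads the authors kept, which had 15 to 32 bases. There were 7 members over 32 bases, with 195 raw reads in all, and 2 of them were longer than the 40 bases sequenced. PC-5p-5738, of 42 bases, had 80 reads in uninjected embryos, 47 after Lhx1-AS and 37 after Fry-MO. The length of such a row is thus that of the listed sequence and not of a read.

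**Figure D3:**
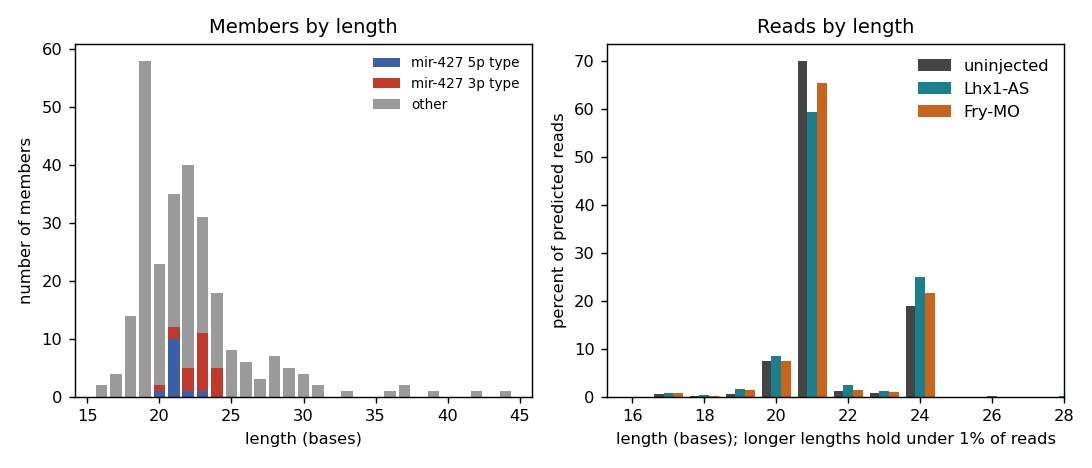
Left, number of predicted members (y axis) by length in bases (x axis), stacked by the mir-427 5p type, the 3p type and others. Right, percent of predicted reads (y axis) by length (x axis, to 28 bases) with 1 bar per library. The 58 members of 19 bases form the tallest bar on the left, while on the right 21 bases hold 59.3% to 70.1% of the reads.

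The arms were even by rows and uneven by reads. There were 134 members named PC-5p and 133 named PC-3p. Of the predicted reads, PC-5p rows held 78.8% (78.5 to 79.1) in uninjected embryos, 70.5% (69.8 to 71.1) after Lhx1-AS and 75.1% (74.5 to 75.7) after Fry-MO. Among other members the PC-5p share was 45.2% (42.6 to 47.7), 46.6% (43.4 to 49.9) and 51.6% (48.1 to 55.2). Among the sequences of mir-427 type, the 5p type took 54.6% (54.3 to 54.9), 41.4% (40.9 to 41.9) and 49.2% (48.7 to 49.8) of the reads when the 2 named rows were counted with the members. Whether these rows come from a mir-427 precursor was not tested. The Lhx1-AS library was thus lowest in its 5p share by more than counting error, both with and without the named rows.

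First bases and seeds were compared with those of named rows. Among *Xenopus* names 80 of 166 (48.2%) began with U, which is usual for miRNAs, against 57 of 267 members (21.3%), 181 of 718 rows with placental mammal names and 109 of 403 with other chordate names. The members began most often with A (96, or 36.0%), and 97.9%, 95.7% and 97.2% of their reads did so in the 3 libraries, against 88.6%, 73.1% and 49.0% of the reads with *Xenopus* names. These read shares largely follow PC-5p-6, PC-3p-15 and PC-5p-37, which all begin with A. Among the reads of other members, 50.1%, 44.5% and 57.3% began with A. The median GC content was 45.8% in the members and 44.5% in *Xenopus* names. Bases 2 to 8 were shared with a *Xenopus* name by 27 members (10.1%), of which 25 were of mir-427 type, and by 16.2% of the rows with mammal or other chordate names. The seed of miR-427 was held by 13 members and bases 2 to 8 of mir-427-p5 by 9. These 9 carried 77.2%, 67.1% and 72.4% of the predicted reads and the 13 carried 19.5%, 26.1% and 22.4%.

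Many rows overlap one another, so they are not independent. A run of at least 15 bases was shared with another member by 57 members, which fell into 18 groups, the largest of 10 rows, and 12 members lay whole inside another. The 5 most read groups held 29 members, 28 of mir-427 type, and 96.6%, 92.6% and 94.5% of the predicted reads. The remaining 13 groups held 28 members, and none had over 177 reads.

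In both injected libraries the predicted members summed to less than in the uninjected library. The sum of normalized counts was 78507 in uninjected embryos, 23951 after Lhx1-AS and 23613 after Fry-MO. The ratio was 0.305 (0.300 to 0.310) for Lhx1-AS and 0.301 (0.296 to 0.305) for Fry-MO, and both comparisons share the uninjected library. Between the injected libraries the ratio of Fry-MO to Lhx1-AS was 0.986 (0.966 to 1.006), a difference within counting error, but it was 0.580 when libraries were scaled to their listed reads and 1.29 when scaled to their mappable reads. The sums largely follow PC-5p-6. Without it the ratios were 0.412 for Lhx1-AS and 0.347 for Fry-MO, and without the 3 most read members 0.547 and 0.415.

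The mir-427 types and the other members had different summed ratios. The 5p type had a ratio of 0.267 (0.262 to 0.272) after Lhx1-AS and 0.282 (0.277 to 0.288) after Fry-MO, and the 3p type 0.409 (0.396 to 0.422) and 0.346 (0.335 to 0.358). The sum of both types stayed below 1 under 4 other scalings, at 0.267 to 0.594 after Lhx1-AS and 0.237 to 0.418 after Fry-MO. The other members had a ratio of 0.745 (0.686 to 0.809) with Lhx1-AS, which became 1.5 (1.38 to 1.62) when libraries were scaled to their listed reads, and 0.548 (0.502 to 0.598) with Fry-MO, which ran from 0.440 to 0.775 under the other scalings. The named rows are given for reference. MiR-427 had a ratio of 0.479 after Lhx1-AS and 0.357 after Fry-MO, and mir-427-p5 had 0.293 and 0.309. Rows with *Xenopus* names other than these 2 summed to ratios of 1.24 and 4.94.

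Single members were compared where at least 1 of the 2 libraries had 10 raw reads or more, with ratios of 2 and above called higher and ratios of 0.5 and below called lower. Counts of 0 were raised to 3 reads. With Lhx1-AS 51 members were compared, of which 30 were lower, where 17.9% of all 263 rows compared were lower, and 3 were higher, where 36.9% of all rows were. The median log2 ratio was -1.18 over the members and 0.29 over all rows. Scaling to the listed reads multiplied every ratio of this comparison by 2.01, and the split was then 8 members higher and 2 lower, against 148 higher and 4 lower among all 263 rows. With Fry-MO 51 members were compared, 38 were lower against 23.7% of all 312 rows, and 0 were higher against 57.4% of all rows. The median log2 ratio was -1.42 over the members and 1.91 over all rows. All rows include the members themselves, which were 30 of the 47 rows lower with Lhx1-AS and 38 of the 74 lower with Fry-MO.

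These counts and medians lean on the library in which the members were most read. Of the 51 members, 17 reached 10 reads in the uninjected but not the Lhx1-AS library and 18 did so in the uninjected but not the Fry-MO library, while 0 did so the other way round, so those members could not have been called higher. Among members with at least 10 reads in both libraries, 17 of 34 were lower with Lhx1-AS, where 15.4% of all 156 such rows were, and 23 of 33 with Fry-MO, where 28.1% of all 153 such rows were. The members were 17 of the 24 such rows lower with Lhx1-AS and 23 of the 43 with Fry-MO. Of the mir-427 types alone, 16 of 21 such members were lower with Lhx1-AS and 20 of 22 with Fry-MO. Of the others, 1 of 13 and 3 of 11 were. Higher calls and medians over rows with at least 10 reads in both libraries are not given here. The gaps between members and all rows in median and in higher calls thus hold for the wider filter only, which also moves them. By type, 18 of 25 mir-427-type members compared were lower with Lhx1-AS and 23 of 25 with Fry-MO, against 12 of 26 and 15 of 26 others. Scaled to the listed reads, 1 of the 25 and 1 of the 26 were lower with Lhx1-AS, where 4 of all 263 rows were. With Fry-MO, 22 and 12 were then lower, where 61 of all 312 rows were.

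**Figure D4:**
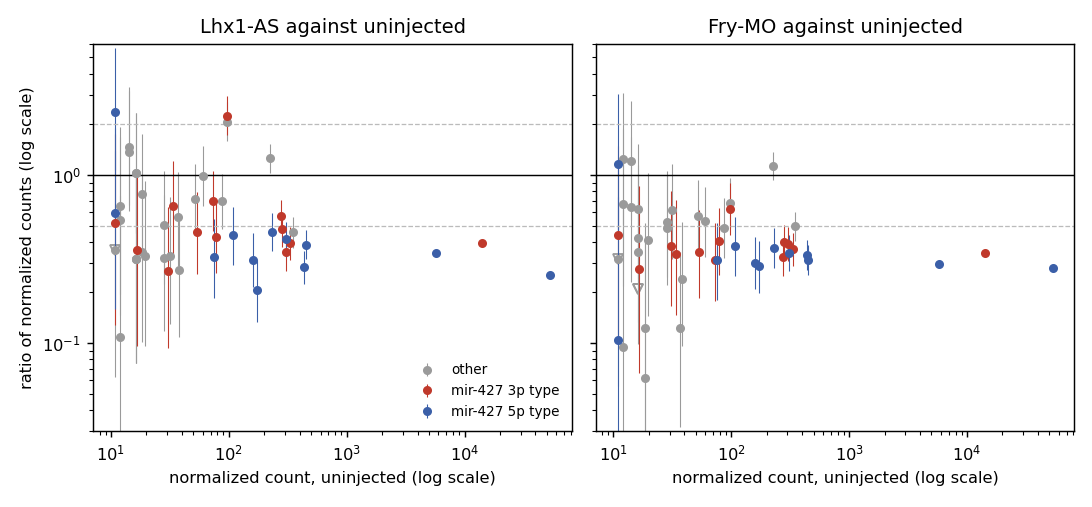
Ratio of normalized counts to the uninjected library (y axis, log scale) against the normalized count in the uninjected library (x axis, log scale) for the 51 members compared, with Lhx1-AS on the left and Fry-MO on the right. Bars are 95% counting intervals, cut off at the edges of the panel, open triangles mark members at 0 reads set to 3, and dashed lines mark ratios of 0.5 and 2. On the left 3 members lie above the upper line, and on the right none does.

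PC-5p-6 had 49174 raw reads in uninjected embryos, 10522 after Lhx1-AS and 13079 after Fry-MO, or 53414, 13604 and 14914 normalized counts. It was highest in the uninjected library, and its ratio was 0.255 (0.249 to 0.260) after Lhx1-AS and 0.279 (0.274 to 0.285) after Fry-MO. PC-5p-37, its form without the last base, had 5311, 1528 and 1496 reads, with ratios of 0.342 (0.323 to 0.362) and 0.296 (0.279 to 0.313). The shorter form thus took 9.75% (9.50 to 9.9996) of the reads of both forms in uninjected embryos, 12.7% (12.1 to 13.3) after Lhx1-AS and 10.3% (9.78 to 10.8) after Fry-MO. This within-library share does not depend on the scaling, and the Lhx1-AS share lay above the other two by more than counting error. Against the named mir-427-p5 row, PC-5p-6 took 87.0%, 85.3% and 85.8% of the reads of both, so the mir-427-p5 row was the less read one in every library. Scaled to the listed reads, the ratios of PC-5p-6 and PC-5p-37 with Lhx1-AS were 0.511 and 0.687.

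PC-3p-15, miR-427 with 1 further base, had 12981 reads in uninjected embryos, 4267 after Lhx1-AS and 4233 after Fry-MO. Its ratios were 0.391 (0.378 to 0.405) and 0.342 (0.331 to 0.354), and scaled to the listed reads that with Lhx1-AS was 0.786. Of the reads of PC-3p-15 and the miR-427 row together, the longer form took 25.2% (24.9 to 25.6), 21.6% (21.1 to 22.2) and 24.4% (23.8 to 25.1). The share was again set apart in the Lhx1-AS library, where it was lowest. PC-3p-1607, the other form with 1 further base, had 260, 104 and 98.4 reads and ratios of 0.474 (0.374 to 0.597) and 0.397 (0.312 to 0.502). PC-3p-1528, of the length of miR-427, had 307, 101 and 106 reads and ratios of 0.393 (0.310 to 0.493) and 0.363 (0.289 to 0.455).

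With the authors' scaling, the less read members of the 5p type named by rule were lower in both injected libraries. PC-5p-877, PC-5p-3494 and PC-5p-2431 were named by the size of their ratios alone, so this was set by the choice for them. Of all 12 members of the 5p type compared, 10 were lower and 1 was higher with Lhx1-AS, and 11 were lower with Fry-MO. Among all rows compared, 17.9% and 23.7% were lower. Scaled to the listed reads, the ratios with Lhx1-AS were 0.773 for PC-5p-254, 0.567 for PC-5p-669 and 0.830 for PC-5p-2095. For PC-5p-3494, PC-5p-2431 and PC-5p-877 they were 0.631, 0.655 and 0.418, so among these only PC-5p-877 kept its call as lower. PC-5p-254 had 413 reads in uninjected embryos, 134 after Lhx1-AS and 123 after Fry-MO, with ratios of 0.385 (0.315 to 0.469) and 0.312 (0.253 to 0.383). It shares runs of bases with PC-5p-2095, PC-5p-3494 and PC-5p-2431, and the group of 4 had a summed ratio of 0.378 (0.330 to 0.432) after Lhx1-AS and 0.321 (0.279 to 0.367) after Fry-MO. PC-5p-669 had 401, 95.2 and 128 reads, with ratios of 0.283 (0.224 to 0.354) and 0.334 (0.271 to 0.408). PC-5p-877, with 159, 27.7 and 43.3 reads, had the smallest ratio with Lhx1-AS among members with at least 50 reads over both libraries, 0.208 (0.134 to 0.313), and 0.286 (0.200 to 0.403) with Fry-MO. Its interval overlaps that of PC-5p-6, so the order of these members is not resolved at this depth.

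In the 3p type, 2 groups of overlapping rows were compared. The group of 10 overlapping rows led by PC-3p-1118 had ratios of 0.392 (0.327 to 0.469) after Lhx1-AS and 0.383 (0.321 to 0.454) after Fry-MO, and PC-3p-1118 itself had 280 reads in uninjected embryos, 82 after Lhx1-AS and 104 after Fry-MO. The group of 7 led by PC-3p-438 had 0.583 (0.481 to 0.704) after Lhx1-AS and 0.315 (0.25 to 0.395) after Fry-MO. In that group PC-3p-438 had 254, 121 and 78.8 reads and PC-3p-782 had 67.7, 39.8 and 20 reads. Scaled to the listed reads, the ratios of these 2 members with Lhx1-AS were 1.14 and 1.41, so their place below the uninjected library depends on the scaling. The group stood lower in the Fry-MO than in the Lhx1-AS library, at a ratio of 0.541 (0.418 to 0.697), where the group of PC-3p-1118 had 0.976 (0.786 to 1.21). The intervals of these 2 ratios do not overlap. The naming rule listed PC-3p-438 and PC-3p-782 among the smallest and PC-3p-1118 among the largest values of this same ratio. The gap between the groups thus follows from that choice and is no separate evidence. The group of 5 led by PC-3p-15 lay between them, at 0.875 (0.839 to 0.912). A change of scaling moves all these ratios by the same factor.

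**Figure D5:**
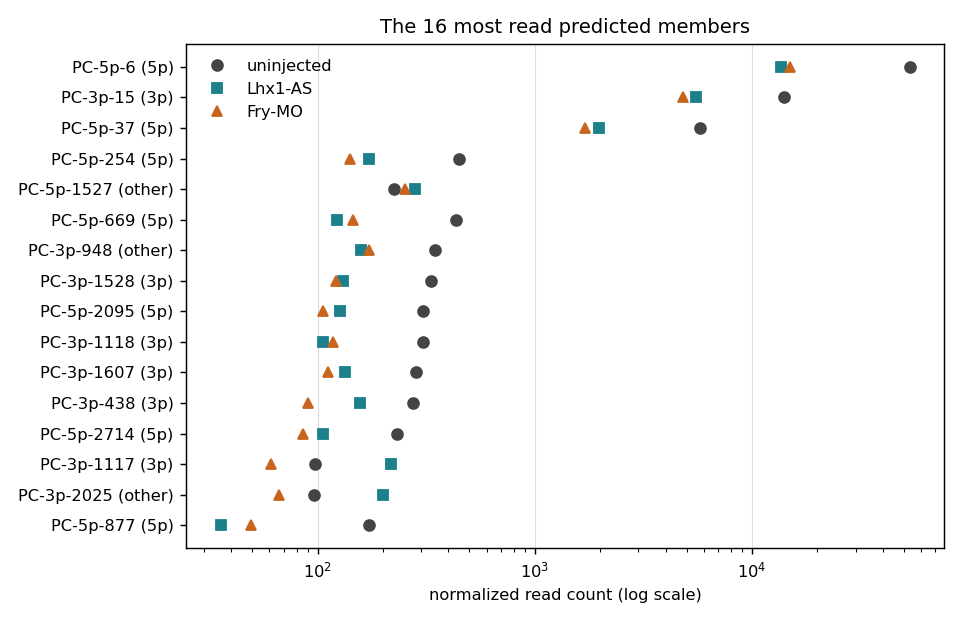
Normalized read count (x axis, log scale) of the 16 most read members (y axis, most read at the top) in the uninjected (circle), Lhx1-AS (square) and Fry-MO (triangle) library, 1 value per library. The name is followed by 5p or 3p for the mir-427 5p or 3p type and by other for the rest. The uninjected library is highest in 13 of the 16, and the Lhx1-AS library is highest in PC-5p-1527, PC-3p-1117 and PC-3p-2025.

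Only 3 members were called higher with Lhx1-AS. PC-3p-1117, at a distance of 6 from miR-427, had 89.5 reads in uninjected embryos, 169 after Lhx1-AS and 53.5 after Fry-MO. It was highest with Lhx1-AS, at a ratio of 2.24 (1.72 to 2.93), and below the uninjected library with Fry-MO, at 0.628 (0.439 to 0.890). PC-3p-2025, at a distance of 7 from miR-427 and thus just outside the limit, had 89, 155 and 58 reads and ratios of 2.07 (1.59 to 2.72) and 0.684 (0.483 to 0.963). PC-3p-2025 was named by the size of its ratios alone. Under the other scalings its ratio with Lhx1-AS ran from 1.87 to 4.16 and that of PC-3p-1117 from 2.02 to 4.50, so the call of PC-3p-2025 did not hold everywhere. With Fry-MO their ratios ran from 0.549 to 0.968 and from 0.503 to 0.888. The order of the libraries by value held. Scaled to the mappable reads, however, the intervals with Fry-MO held 1, so their place below the uninjected library depends on the scaling. PC-5p-6890, of the 5p type, was named after its values were seen, and had 10, 20 and 11 reads with a ratio of 2.38 (1.06 to 5.70).

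A named row chosen after its values were seen, miR-428, also had its highest count after Lhx1-AS, with 31 reads in uninjected embryos, 87 after Lhx1-AS and 27 after Fry-MO, and ratios of 3.34 (2.19 to 5.21) and 0.914 (0.525 to 1.58). PC-3p-1117 lies at a distance of 6 from miR-428 as well as from miR-427. The mir-427-p3 row, a further *Xenopus* name at a distance of 14 from miR-427, had 369, 90 and 85 reads and was lower in both injected libraries, like most members compared.

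Of the 30 members with at least 50 reads, 20 were of mir-427 type, and so were 15 of the 20 most read. The first other member came at rank 5. This was PC-5p-1527, of 19 bases and a GC content of 26.3%, with 207 reads in uninjected embryos, 218 after Lhx1-AS and 222 after Fry-MO. Its ratio was 1.25 (1.03 to 1.52) after Lhx1-AS and 1.13 (0.927 to 1.37) after Fry-MO, and under the other scalings these ran from 1.13 to 2.52 and from 0.903 to 1.59. Its level thus did not follow that of the mir-427 types in either library. PC-3p-948, of 17 bases, had 321, 123 and 152 reads and ratios of 0.456 (0.367 to 0.563) and 0.497 (0.407 to 0.605). Under the other scalings its ratios ran from 0.412 to 0.916 and from 0.399 to 0.703, so neither call as lower held everywhere.

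The rule also named 3 other members for the size of their ratios. PC-5p-5738, of 42 bases and a GC content of 83.3%, had ratios of 0.699 (0.477 to 1.015) and 0.486 (0.320 to 0.725). PC-3p-3293, of 18 bases and a GC content of 88.9%, had 55.5 reads in uninjected embryos, 46 after Lhx1-AS and 28 after Fry-MO, with ratios of 0.987 (0.653 to 1.48) and 0.530 (0.324 to 0.849). PC-3p-5164 had 48, 29 and 26 reads and ratios of 0.719 (0.437 to 1.16) and 0.569 (0.339 to 0.935). With the authors' scaling, the intervals of these 3 rows hold 1 in the Lhx1-AS comparison and lie below 1 in the Fry-MO comparison. Scaled to the listed reads, their ratios with Lhx1-AS were 1.40, 1.98 and 1.44. Scaling to the mappable reads multiplied every ratio with Fry-MO by 1.41. Their ratios with Fry-MO were then 0.687, 0.749 and 0.804 and the intervals held 1, so this contrast depends on the scaling.

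Between the injected libraries 38 members were compared, of which 8 were lower with Fry-MO than with Lhx1-AS, where 18.3% of all 323 rows compared were, and 0 were higher, where 47.7% of all rows were. The 8 are 21.1% of the members compared, a share near that of all rows, and 4 of them reached 10 reads in the Lhx1-AS library only. With at least 10 reads in both libraries, 4 of 29 members were lower, against 7.51% of all 173 such rows. The median log2 ratio was -0.23 over the members and 0.74 over all rows. It became 0.15 for the members when libraries were scaled to their mappable reads. The lower members included PC-3p-1117 at 0.280, PC-3p-2025 at 0.330 and PC-3p-782 at 0.443. The 5p type had a summed ratio of 1.06 (1.03 to 1.08) and the 3p type of 0.847 (0.814 to 0.881), and this order of the sums does not depend on the scaling. The 5p sum largely follows PC-5p-6, at 1.10 (1.07 to 1.12). Of the 11 members of the 5p type compared, 8 had ratios below 1 and 3 above. Their median ratio was 0.870, against 0.838 in the 3p type, so the gap in the sums is not one of the members at large.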

How the data were processed

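The paper's methods describe small RNA libraries of 3 samples sequenced to 40 bases (SCS 2.8, RTA 1.8.70) and processed with ACGT101-miR 4.2, with lengths of 15 to 32 bases kept. Reads were matched to miRBase and to genomes of *X. laevis* and other chordates. The miRBase release number, the genome builds and how the library size parameter was derived were not found in these sources. Expected counts, raw reads divided among rows where a read fits several, were deposited by the authors. A normalized signal was deposited by the authors too, in which the library size parameter divides the reads and 0 is written as 0.001. The authors also deposited numbers of reads per processing step. Of an index up to 1987, 2 lines were not analysed here.

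Ratios are of normalized counts with a 95% Clopper-Pearson interval from raw reads, and log2 ratios add a pseudocount of 1. No fold was taken where both libraries had at most 3 reads, which are worth 3.26, 3.88 and 3.42 normalized counts in the uninjected, Lhx1-AS and Fry-MO library. The 27 members named by rule are the 12 most read, the 5 most read per library, the 6 largest and 6 smallest ratios per comparison among members with at least 50 reads over both libraries, and the 2 most read found in 1 library only. Other names were chosen after values were seen. The members and lists were chosen with earlier results of these data known. Sequences were compared with edlib 1.3.9.post1 and are not printed. The versions were Python 3.11.15, matplotlib 3.10.9, scipy 1.17.1, numpy 2.4.6 and pandas 2.3.3. Median-of-ratios factors (DESeq2 1.42.0) and TMM factors (edgeR 4.0.16, R 4.3.3) were computed on rounded raw reads for scaling alone. The ratio calculation was tested on simulated data. Alternatives were other scalings, minimum reads, folds and pseudocounts, an interval that excludes 1, whole reads only, each arm alone, and leaving out the most read members.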

Additional observations from a re-analysis of the deposited data

How the results depend on the processing

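No paired analysis was possible because each condition has 1 library. No replicate could be left out for the same reason. Of 134 alternative values, 62 stayed near the main one, 71 moved and 1, a median, turned its sign. The cause was not tested. Near meant inside the counting interval for summed ratios and shares, and within 1.5-fold for counts of members. For median ratios it meant an interval over the members, which are not replicates, and for lengths the quartiles. These limits differ in width, and some alternatives change what is summed, so the tally is no measure of stability. The scaling shifts all rows together. Scaled to the listed reads, the median log2 ratio over all rows compared rose from 0.29 to 1.27 with Lhx1-AS and from 1.91 to 2.07 with Fry-MO and fell from 0.74 to 0.02 between the injected libraries, and scaled to the mappable reads it was 0.40, 2.35 and 1.11.

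In the order listed reads, TMM, median of ratios and mappable reads, the summed ratio of the members was 0.613, 0.275, 0.287 and 0.330 with Lhx1-AS, 0.355, 0.241, 0.242 and 0.426 with Fry-MO, and 0.580, 0.877, 0.841 and 1.29 between Fry-MO and Lhx1-AS. The last of these comparisons, whose interval holds 1, thus crossed 1 scaled to the mappable reads, and did so for PC-5p alone. In the order of those 3 comparisons it was 0.412, 0.347 and 0.841 without the most read member, 0.547, 0.415 and 0.759 without the 3 most read, 0.752, 0.555 and 0.737 with whole reads only, 0.273, 0.287 and 1.05 for PC-5p, and 0.426, 0.354 and 0.830 for PC-3p. Without the mir-427 types, an alternative chosen after seeing the data, it was 0.745, 0.548 and 0.736.

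The 3 members higher with Lhx1-AS became 8 scaled to the listed reads and 0 at a fold of 4. The 30 lower became 2 scaled to the listed reads, 16 at a minimum of 50 reads, 2 at a fold of 4, 12 with whole reads only, and 17 with at least 10 reads in the injected library, a filter added after seeing the data. With Fry-MO the 38 lower became 25 scaled to the mappable reads, 19 at a minimum of 50 reads, 8 at a fold of 4, 16 with whole reads only and 23 with that added filter. Between the injected libraries, the 0 higher became 2 scaled to the mappable reads, 1 without a minimum, 3 at a fold of 1.5 and 1 by an interval that excludes 1. The 8 lower became 19 scaled to the listed reads, 4 scaled to the mappable reads, 16 without a minimum, 2 at a minimum of 50 reads and 2 at a fold of 4. These scalings moved the calls over all rows too. Scaled to the listed reads, 148 of 263 rows were higher and 4 lower with Lhx1-AS. Between the injected libraries 103 of 323 rows were then lower, against 59 in the main setting. Scaled to the mappable reads, 46 of 312 rows were lower with Fry-MO, against 74 in the main setting. Between the injected libraries 166 of 323 were then higher and 45 lower. Counts over all rows are not given here for the other alternatives.

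The median log2 ratio with Lhx1-AS became -0.19 scaled to the listed reads and -0.79 with a pseudocount of 10. With Fry-MO it became -1.18, -1.69, -1.69 and -0.93 under the scalings in the order above, -1.03 with a pseudocount of 10 and -1.06 without a minimum. Between the injected libraries it became -0.995 scaled to the listed reads and turned to 0.15 scaled to the mappable reads. In the order uninjected, Lhx1-AS and Fry-MO, the share of predicted reads was 54.0%, 33.1% and 19.2% of the listed reads, 2.29%, 0.756% and 0.974% of the mappable reads, 27.3%, 17.6% and 8.03% without the most read member, and 7.24%, 5.56% and 2.13% without the 3 most read, each also taken out of the listed reads. The number of members, 267, became 63 at a minimum of 10 reads and 30 at 50. The median lengths of 21, 22 and 21 bases stayed within their quartiles.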

Other observations

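The last number in the name of a predicted member is not explained in the sources used here. It equalled the raw total of the 3 libraries for 97 of the 267 members, was above it for 87 and below it for 83. The numbers summed to 357190 and the raw totals to 111509. For PC-5p-6 the number is 221739 and the raw total 72776.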
